A study of Mus with 6 samples.

Results

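The antioxidant enzymes of cardiac endothelial preparations were compared between Ccl28 knockout (KO) and wild-type (WT) mice through 37 genes of the superoxide, glutathione, thioredoxin and NRF2 systems. The genes were taken by symbol from a fixed list, not by their values, and all 37 were found among the 20893 genes of the deposited FPKM table and reached 1 FPKM or more in 3 or more libraries, the filter that 10806 genes in all passed. FPKM is a read count scaled to transcript length and library size, so levels can be compared between genes. 3 WT and 3 KO libraries were made, with the replicate numbers 2, 3 and 4 in both groups, and values are given below in that order. All mice, WT included, had undergone left coronary artery ligation, an operation that infarcts the heart muscle, and cells without CD45 and with CD31 on their surface were taken with magnetic beads and labelled as cardiac microvascular endothelium. The genotype field of KO replicates 3 and 4 names Ccl29 and Ccl30, in conflict with their titles, which were followed. Strain, sex, age, the time after ligation and whether the replicates were separate animals were not given in the sources used here, so p-values measure the spread between these libraries, which may be technical.

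Cells make superoxide and hydrogen peroxide as by-products of respiration and through oxidases. Superoxide dismutases turn superoxide into hydrogen peroxide, which catalase, glutathione peroxidases and peroxiredoxins reduce. Glutathione and thioredoxin carry the electrons for the last groups and are recharged by their own reductases. The transcription factor NRF2, encoded by Nfe2l2, is held back by KEAP1 until oxidants or electrophiles modify KEAP1, and then induces genes such as Nqo1, Hmox1, Gclm, Txnrd1 and Srxn1. In endothelium the same enzymes limit the loss of nitric oxide to superoxide.

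The libraries held 39104282 to 40500067 reads in genes in WT and 36004457 to 37780513 in KO, and the least covered of the 37 genes, Gsta4, had 84 to 140 reads per library. Ccl28, the targeted gene, which encodes a chemokine of mucosal epithelia, had 16, 11 and 24 reads in WT and 0 in each KO library. At a floor of 3 reads per KO library it was at least 5.28-fold lower (exact two-sided permutation test on FPKM, p = 0.1, the smallest that 3 against 3 allow). Pecam1, which encodes CD31, stood at 673 to 744 FPKM in WT and 560.5 to 648 in KO. Every KO library was lower, but the gene was not called in limma (log2 fold change -0.21, adjusted p = 0.0709). Ptprc, which encodes CD45, stood at 0.871 to 1.71 FPKM. All 12 endothelial markers passed the filter, and 2 rose and 6 fell, Cdh5 among the 6. Short transcripts were higher in KO and long ones lower across the whole table. The slope of a library's deviation on log2 transcript length was 0.101 to 0.135 in WT and -0.155 to -0.091 in KO, so genotype and this length trend cannot be told apart. Fold changes were therefore also computed after the trend was subtracted from every library, while levels, ratios and sums are given as deposited only. Of the 12 endothelial markers, 0 then rose and 4 fell, with Cdh5 still among those that fell. Reads of mitochondrially encoded genes made up 6.03% to 10.8% of all reads in WT and 10.5% to 12.7% in KO, and the part of this share in the results was not tested. The 37 genes have a median implied transcript length of 1618 nt, against 3429 nt for all genes tested.

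KO libraries had more transcript from most of these genes. Of the 37 genes, 20 rose and 1 fell at an adjusted p of 0.05 in limma, where 18.3% of all genes tested rose and 25.8% fell. Their median log2 fold change, KO over WT, was 0.31, against -0.03 for all genes tested. In 21 genes every KO library lay above every WT library, and in 2 every KO library lay below, against 22.8% and 31.9% of all genes. The genes that rose held the 6 peroxiredoxins, 4 of 5 glutathione peroxidases, both thioredoxins, both haem oxygenases, Sod1, 2 glutaredoxins and 3 of 4 glutathione S-transferases, and Sod3 was the one that fell. In the authors' deposited table, whose header names DESeq2, the same 20 genes had a q-value under 0.05 and a higher level, where 13.6% of its 17686 genes were.

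**Figure D1:**
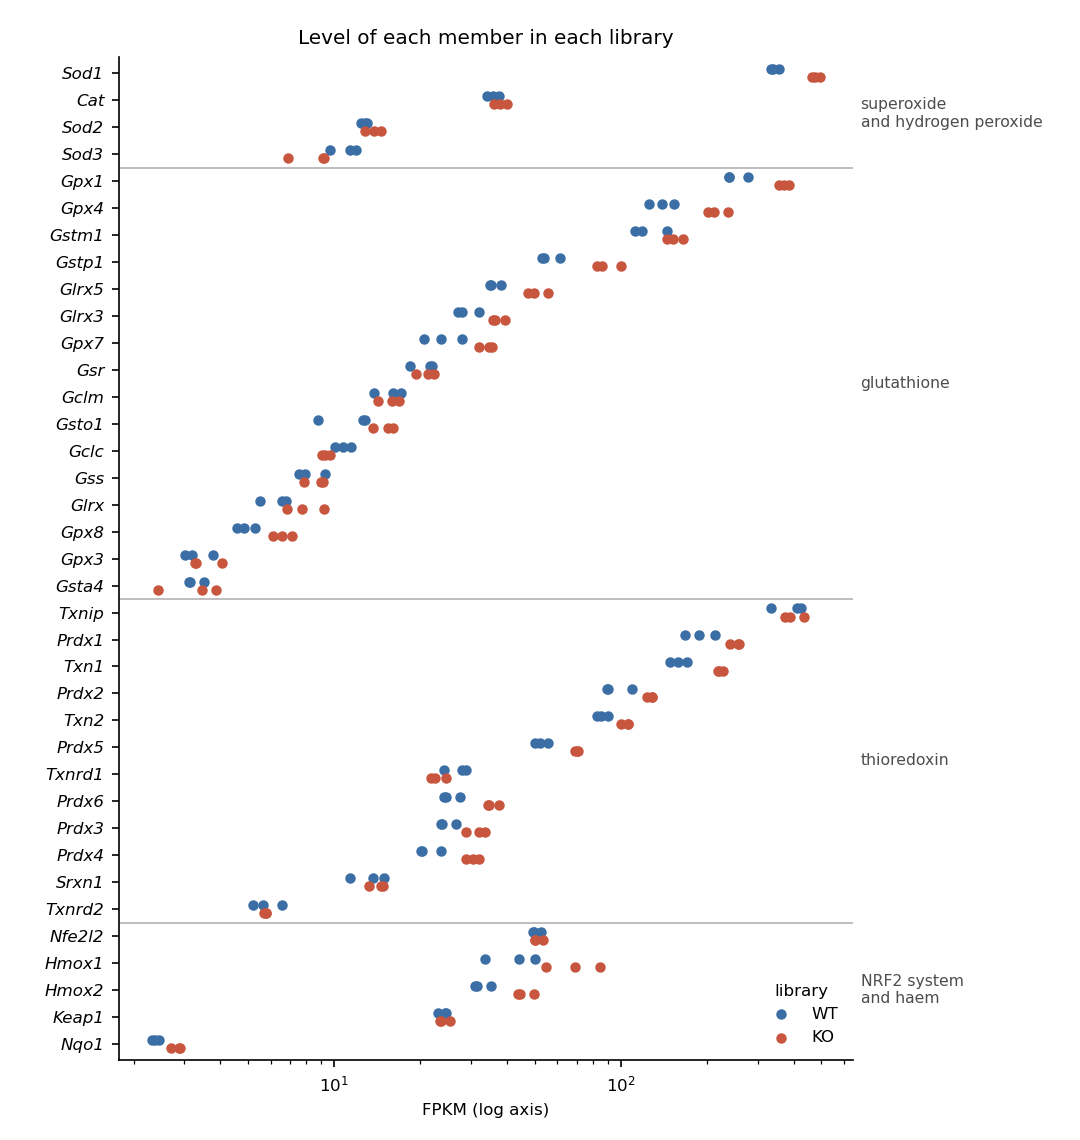
FPKM of the 37 genes (log axis) in each of the 3 WT and 3 KO libraries, 1 point per library, ordered within each role by WT mean. Sod1, Gpx1, Txn1 and Gstp1 have separate WT and KO points, while those of Nfe2l2, Keap1, Gsr and Gclm overlap.

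After subtraction of the length trend, 5 of the 37 genes rose (Gpx4, Prdx4, Prdx6, Hmox2 and Glrx3) and Sod3 fell, against 9.31% and 9.59% of all genes tested. All 6 had been called in the same direction before, and the median of the 37 genes became 0.07 (all genes tested, -0.002). All genes tested were then ordered by transcript length and divided into 5 classes of equal size. In class 1, with the shortest transcripts (105 to 1791 nt), 59.8% of all genes rose, and 16 of the 19 genes of the set did. In class 2, up to 2867 nt, 20.4% of all genes rose, and 3 of 11 of the set (Prdx6, Hmox2 and Glrx3). In class 3, up to 4128 nt, 7.59% of all genes rose, and 1 of 6 of the set (Prdx4). Keap1 was the only gene of the set in class 4, and class 5 held none.

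**Figure D2:**
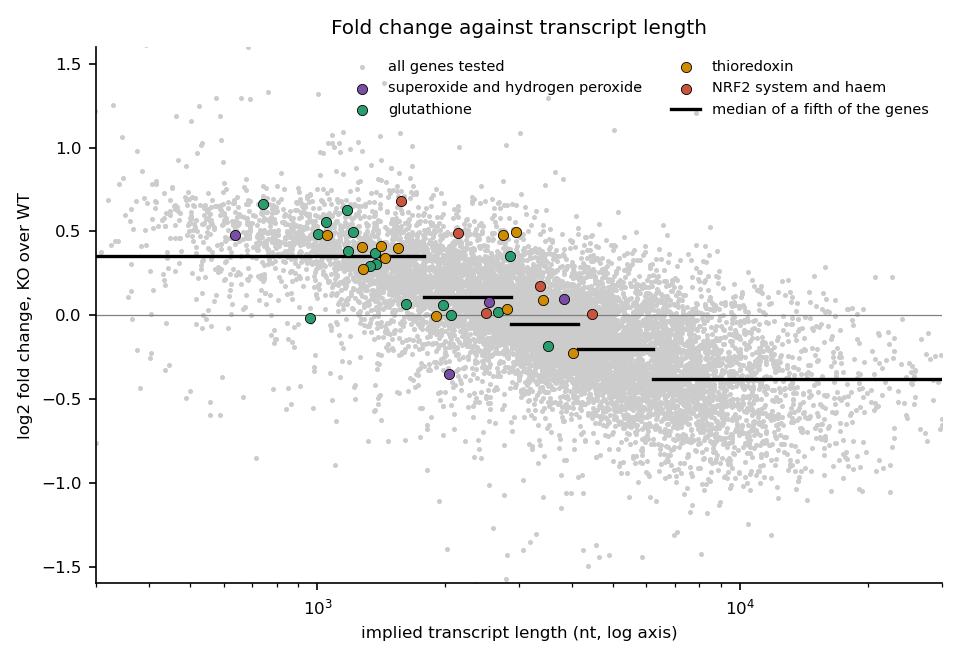
Log2 fold change, KO over WT, of FPKM + 1 against implied transcript length (nt, log axis) for all genes tested (grey) and the 37 genes, coloured by role, with a black line at the median of each of 5 length classes of all genes. The medians go from 0.35 in the shortest class to -0.38 in the longest, and 19 and 11 of the 37 genes lie in the 2 shortest classes. Genes beyond the axis limits are not drawn.

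**Figure D3:**
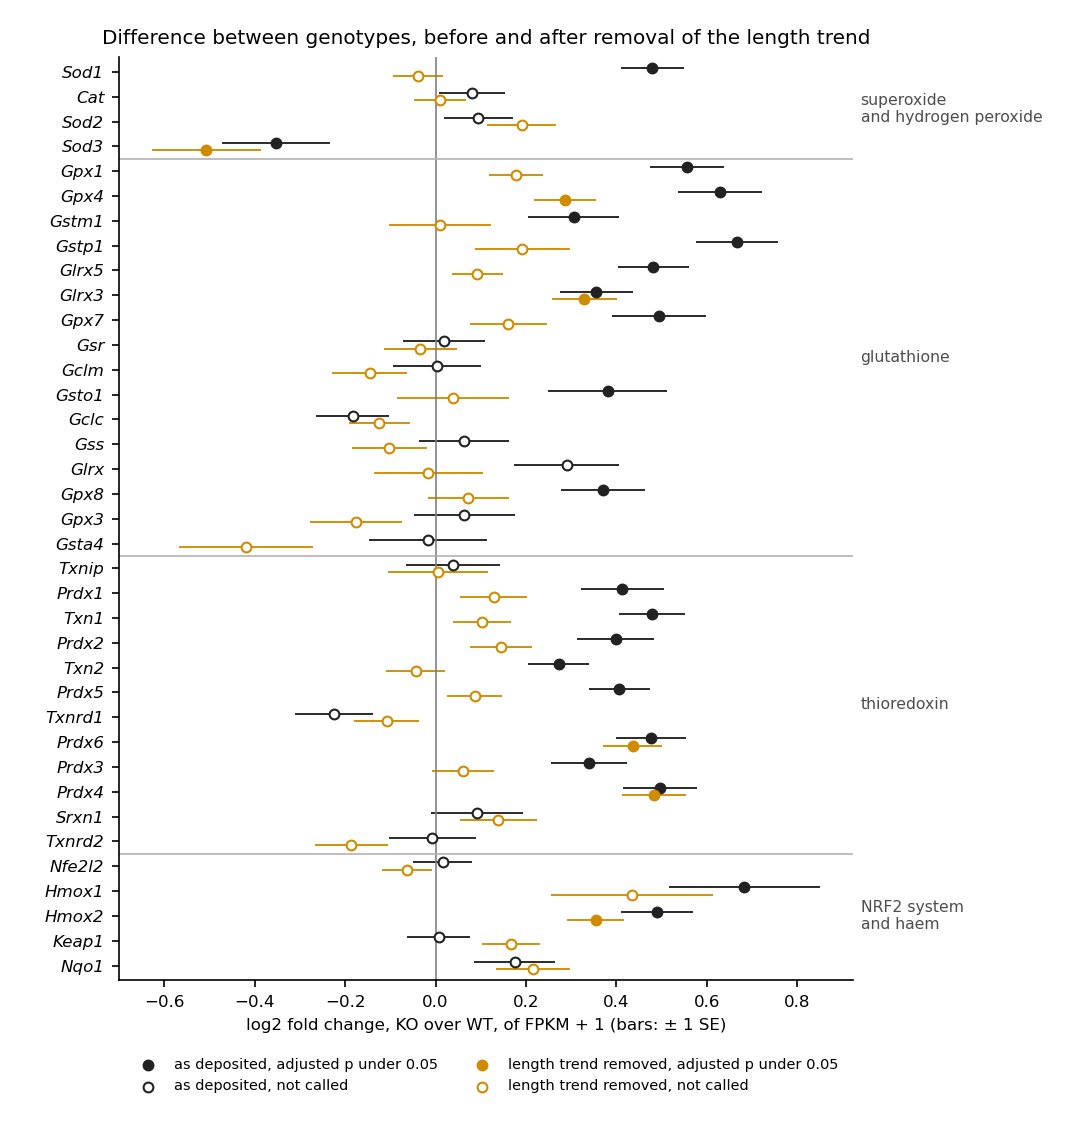
Log2 fold change of each gene with its SE as deposited (black) and with the length trend subtracted (orange), filled where the adjusted p was under 0.05. Of 20 filled black points above 0, 5 have a filled orange point, and Sod3 is filled below 0 in both.

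The superoxide dismutases, which differ in where they act, went separate ways. Sod1, the cytosolic copper-zinc enzyme (chromosome 16, 90220762 to 90226333, GRCm38), stood at 355, 339.7 and 333 FPKM in WT and at 476, 466 and 494 in KO. All 3 KO libraries were above all WT libraries, and the mean went from 343 ± 11.3 (SD, n = 3) to 479 ± 14.3 (log2 fold change 0.48, SE 0.07, adjusted p = 0.000856). It was the second most abundant of the 37 genes in WT and the most abundant in KO. Its transcript is the shortest of the set at 637 nt, and once the length trend was subtracted its log2 fold change was -0.04 (adjusted p = 0.668) and the groups overlapped.

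Sod2, the mitochondrial manganese enzyme, had 12.8, 13.05 and 12.4 FPKM in WT and 12.8, 13.8 and 14.5 in KO. The groups overlapped and the gene was not called (log2 fold change 0.09, SE 0.08, adjusted p = 0.341). After subtraction of the length trend it was 0.19 (adjusted p = 0.118), with every KO library above every WT library. As deposited, within a library Sod1 was 26.04 to 27.7 times Sod2 in WT and 33.8 to 37.1 times in KO, whereas after the length correction the log2 fold change of Sod1 (-0.04) was below that of Sod2. Sod3, the enzyme secreted into the vessel wall (chromosome 5, 52363804 to 52369738), had 9.68, 11.4 and 11.9 FPKM in WT and 9.24, 6.9 and 9.11 in KO. Every KO library was lower than every WT library, with the highest KO value close to the lowest WT value (1.3-fold lower on means, log2 fold change -0.35, SE 0.12, adjusted p = 0.0361). Subtraction of the length trend left it lower by more (-0.51, adjusted p = 0.0223).

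The Sod3 call was lost in limma without WT replicate 3, WT replicate 4 or KO replicate 3 (adjusted p = 0.0895, 0.126 and 0.112), and also under quantile normalization, median-ratio scaling or no filter (0.129, 0.0641 and 0.126). Its q-value in the authors' deposited table was 0.0914. Sod3 is made by smooth muscle cells and fibroblasts of vessels more than by endothelium. Of 10 tested mural markers 7 fell (6 after the length correction), and their summed level was 476 to 623 FPKM in WT and 362 to 568 in KO. Of 8 tested fibroblast markers 6 fell (5 after the correction), with 29.3 to 34.6 FPKM summed over the 10 listed in WT and 16.8 to 19.2 in KO. No listed marker of either type was at 0 in all libraries, and their part in the Sod3 result was not tested. In these bulk samples fewer cells of a type and less RNA per cell cannot be told apart. Cat, the catalase of peroxisomes, had 34.04 to 37.6 FPKM in WT and 36.1 to 39.98 in KO and was not called (adjusted p = 0.39).

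Glutathione peroxidases, which reduce peroxides with glutathione, were higher in KO apart from Gpx3. Gpx4, the selenoenzyme that reduces lipid hydroperoxides in membranes (chromosome 10, 80047166 to 80056439), had 153, 139 and 126 FPKM in WT and 211, 201 and 237 in KO. The KO libraries were all higher (139.5 ± 13.8 against 216 ± 18.4, n = 3, log2 fold change 0.63, SE 0.09, adjusted p = 0.000876). It was the peroxidase of this family that also rose with the length trend subtracted (log2 fold change 0.29, adjusted p = 0.0231). Gpx1, the cytosolic selenoenzyme, went from 277, 239 and 238 FPKM in WT to 355, 369 and 384 in KO (adjusted p = 0.000882). Without the length trend its log2 fold change of 0.56 became 0.18 (adjusted p = 0.0702), and the groups still did not overlap.

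Gpx7 and Gpx8 encode peroxidases of the endoplasmic reticulum that use protein disulfide isomerases. Gpx7 had 27.9, 20.6 and 23.6 FPKM in WT and 34.6, 31.9 and 35.6 in KO (log2 fold change 0.49, adjusted p = 0.00461). Gpx8 was lower in level, at 5.28, 4.57 and 4.83 FPKM in WT and 7.14, 6.6 and 6.12 in KO (log2 fold change 0.37, adjusted p = 0.0101). The 2 genes kept apart in WT and KO before but not after the length trend was subtracted (adjusted p = 0.214 and 0.605). The Gpx8 locus overlaps Cdc20b in the annotation, and whether reads were counted by strand was not given in the sources used here. Gpx3, which encodes the peroxidase of plasma, had 3.02 to 3.79 FPKM in WT and 3.26 to 4.07 in KO and was not called (adjusted p = 0.667).

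Among the glutathione S-transferases, which join glutathione to electrophiles, Gstp1 had the largest difference of the 16 glutathione genes. It stood at 53.0, 61.2 and 53.8 FPKM in WT and at 100.2, 82.9 and 85.6 in KO, with no overlap (1.6-fold, log2 fold change 0.67, SE 0.09, adjusted p = 0.000704). The transcript is 744 nt long, and the log2 fold change was 0.19 without the length trend (adjusted p = 0.232). Gstp2, Gstp3 and Gstp-ps are related copies between which reads may be split, and their means were at most 2.02 FPKM in either genotype. Gstm1 had 112, 145 and 118 FPKM in WT and 165, 144 and 152 in KO, so WT replicate 3 overlapped the KO libraries (log2 fold change 0.31, adjusted p = 0.0333). Gsto1, of the omega class, had 8.81 to 12.8 FPKM in WT and 13.6 to 15.99 in KO (adjusted p = 0.0393). Both calls rested on single libraries and on the filter. The Gstm1 call was lost without WT replicate 2 or 4 or KO replicate 2 or 4, and that of Gsto1 without WT replicate 3 or KO replicate 3 or 4 (adjusted p of 0.0735 to 0.112 and 0.0884 to 0.103). Without the expression filter the adjusted p was 0.121 for Gstm1 and 0.15 for Gsto1, and quantile normalization gave 0.326 for Gstm1. Subtraction of the length trend left log2 fold changes of 0.01 for Gstm1 and 0.04 for Gsto1, neither called (adjusted p = 0.962 and 0.858). Gsta4, which acts on the lipid aldehyde 4-hydroxynonenal, had 3.12 to 3.51 FPKM in WT and 2.44 to 3.87 in KO and was not called. With the length trend subtracted its log2 fold change was -0.42, with every KO library below every WT library, and it was again not called (adjusted p = 0.0816).

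Glutaredoxins use glutathione to reduce mixed disulfides or to carry iron-sulfur clusters. Glrx5, the mitochondrial cluster carrier, had 38.3, 35.3 and 34.9 FPKM in WT and 47.5, 49.9 and 55.5 in KO (log2 fold change 0.48, adjusted p = 0.00134). Glrx3, its cytosolic counterpart (chromosome 7, 137437573 to 137469631), had 31.9, 27.1 and 27.9 FPKM in WT and 36.4, 39.6 and 35.9 in KO (log2 fold change 0.36, SE 0.08, adjusted p = 0.00678). The KO libraries were higher in both genes. Glrx3 has a transcript of 2852 nt and rose with the length trend subtracted as well (0.33, adjusted p = 0.0163), while Glrx5, at 1002 nt, was not called then (0.09, adjusted p = 0.288). Glrx, the cytosolic dithiol enzyme, had 5.51 to 6.8 FPKM in WT and 6.86 to 9.23 in KO and was not called (adjusted p = 0.0668), though it was under quantile normalization (0.0135), under median-ratio scaling (0.0301) and without KO replicate 4 (0.0369).

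The genes for making and recharging glutathione were not called. Gclc, the catalytic subunit of the enzyme that limits the rate of glutathione synthesis, had 11.4, 10.1 and 10.7 FPKM in WT and 9.08, 9.67 and 9.27 in KO. Every KO library was lower, but the difference missed the threshold (log2 fold change -0.18, SE 0.08, adjusted p = 0.0906, and -0.12 with the length trend subtracted). Gclm, its modifier subunit, had means of 15.6 ± 1.68 and 15.7 ± 1.33 FPKM (n = 3). Gss, which adds the last amino acid, and Gsr, the reductase that regenerates glutathione, had log2 fold changes of 0.06 (SE 0.10) and 0.02 (SE 0.09). Of the 16 glutathione genes 9 rose and the other 7 were not called, beside 18.3% of all genes tested that rose. The median of the 16 was 0.33 on the log2 scale. After the length correction 2 rose, beside 9.31% of all genes tested, and the median of the 16 was 0.02.

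In the thioredoxin system all 6 peroxiredoxins and both thioredoxins rose, and the reductases were not called. Prdx1, an abundant cytosolic peroxiredoxin, had 213, 167 and 187 FPKM in WT and 240.6, 255 and 258 in KO (log2 fold change 0.41, adjusted p = 0.00602). Prdx2, another cytosolic form, had 109, 90.3 and 89.2 FPKM in WT and 128, 124 and 129 in KO (adjusted p = 0.0052). For both, the KO libraries were higher and closer together than the WT libraries, with a coefficient of variation of 12.3% and 11.8% in WT and 3.69% and 2.13% in KO. Prdx2 is also a major protein of red blood cells. Of 5 tested erythroid markers 4 rose, with 249.7 to 376 FPKM in WT and 389.8 to 563 in KO summed over the list, while Slc4a1 and Ahsp stayed under 1 FPKM in all 6 libraries. After the length correction 0 of the 5 were called by limma or passed an unadjusted p of 0.05, with a median of 0.01. Their part in the Prdx2 result was not tested.

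Prdx4, the peroxiredoxin of the endoplasmic reticulum (chromosome X, 155323918 to 155342272), had 23.6, 20.2 and 20.1 FPKM in WT and 30.5, 28.9 and 31.9 in KO. Prdx6, which reduces oxidised phospholipids with glutathione (chromosome 1, 161240112 to 161251210), had 27.4, 24.5 and 24.1 FPKM in WT and 34.4, 34.8 and 37.7 in KO. All KO libraries were above all WT libraries in both genes (log2 fold changes 0.50 and 0.48, adjusted p = 0.00149 and 0.00127). They were the peroxiredoxins with the longest transcripts, 2947 and 2754 nt, and their differences hardly moved when the length trend was subtracted, to 0.48 and 0.44 (adjusted p = 0.00477 and 0.00493). Prdx3, the mitochondrial form, had 26.7, 23.7 and 23.7 FPKM in WT and 33.6, 28.8 and 32.1 in KO (adjusted p = 0.00949). Prdx5, found in mitochondria, peroxisomes and cytosol, had 55.8, 52.3 and 50.04 FPKM in WT and 70.3, 70.99 and 69.1 in KO (adjusted p = 0.00146). The annotation places Trmt112 over part of Prdx5. Corrected for length, Prdx1, Prdx2, Prdx3 and Prdx5 had log2 fold changes of 0.06 to 0.14 and were not called.

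Txn1, the cytosolic thioredoxin, had 169.6, 148 and 158 FPKM in WT and 219, 226 and 217 in KO, and the groups lay far apart (log2 fold change 0.48, SE 0.07, adjusted p = 0.000997). Txn2, the mitochondrial one, had 90.2, 82.6 and 85.3 FPKM in WT and 106, 106 and 100.02 in KO (log2 fold change 0.27, adjusted p = 0.00961). Neither was called with the length trend subtracted (0.10 and -0.04, adjusted p = 0.295 and 0.671), and Txn2 was not called under quantile normalization either (adjusted p = 0.06). Txnrd1, the selenoenzyme that reduces Txn1, had 28.7, 24.2 and 27.9 FPKM in WT and 22.4, 24.6 and 21.7 in KO. WT replicate 3 lay among the KO libraries, and the gene missed the threshold (log2 fold change -0.22, SE 0.09, adjusted p = 0.0585). It passed, as lower, without WT replicate 3 or KO replicate 3 (0.0214 and 0.0459), under quantile normalization (0.0437) and in limma-voom on recovered reads (0.0427). Within a library the level of Txn1 was 5.64 to 6.13 times that of Txnrd1 in WT and 9.21 to 10.004 times in KO. Txn1 has a transcript of 1051 nt and Txnrd1 one of 4019 nt, and with the length trend subtracted the log2 fold change of Txnrd1 was -0.11 (adjusted p = 0.326).

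Txnrd2, the mitochondrial reductase, had 5.21 to 6.58 FPKM in WT and 5.7 to 5.8 in KO, and Srxn1, which rescues overoxidised peroxiredoxins, had 11.4 to 14.9 and 13.3 to 14.8. Neither was called. Txnip, which binds thioredoxin and blocks it and also restrains glucose uptake, was the most abundant of the 37 genes in WT. It had 334, 424 and 411 FPKM in WT and 387, 374 and 437 in KO, with overlap (log2 fold change 0.04, SE 0.10, adjusted p = 0.784). As deposited, Txnip was 1.97 to 2.86 times Txn1 in WT and 1.65 to 2.01 times in KO, so the ranges overlapped. Txnip has a transcript of 2801 nt and Txn1 one of 1051 nt. With the length trend subtracted their log2 fold changes were 0.005 and 0.10, and neither was called. Of the 12 thioredoxin genes 8 rose and 4 were not called, beside 18.3% of all genes tested that rose. With the length trend subtracted 2 of the 12 rose, beside 9.31% of all genes tested.

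A grouping made after the values were seen sets the peroxidases against the enzymes of synthesis and recycling. Of all genes tested 18.3% rose and 25.8% fell. Of 11 peroxiredoxins and glutathione peroxidases 10 rose, with transcripts of 1045 to 2947 nt and a median of 0.41 on the log2 scale. All of the 11 but Prdx4 and Prdx6 lie in length class 1, where 59.8% of all genes rose. Of Gclc, Gclm, Gss, Gsr, Txnrd1, Txnrd2 and Srxn1, 0 of 7 were called by limma, with log2 fold changes of -0.22 to 0.09 and transcripts of 1905 to 4019 nt. At an unadjusted p under 0.05, 2 of these 7 were lower, beside 3220 of all 10806 genes tested. On recovered reads limma-voom called 1 of the 7 lower (Txnrd1). Corrected for length, the medians were 0.14 and -0.11, with 3 of the 11 called higher, beside 9.31% of all genes tested.

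Neither Nfe2l2 nor Keap1 was called. Nfe2l2 had 52.5, 49.9 and 49.5 FPKM in WT and 53.3, 50.1 and 50.2 in KO (log2 fold change 0.02, SE 0.07, adjusted p = 0.861). Keap1 had 24.6, 24.3 and 23.1 FPKM in WT and 25.3, 23.7 and 23.4 in KO (log2 fold change 0.01, SE 0.07, adjusted p = 0.944). Both genes overlapped between genotypes as deposited, and the ratio of Nfe2l2 to Keap1 was 2.06 to 2.14 in WT and 2.102 to 2.15 in KO. Subtraction of the length trend gave -0.06 for Nfe2l2 (adjusted p = 0.462) and 0.17 for Keap1 (adjusted p = 0.101), whose KO libraries then all lay above WT. Nqo1, a quinone reductase used as a readout of NRF2 activity, was low, at 2.38, 2.32 and 2.46 FPKM in WT and 2.87, 2.9 and 2.69 in KO. Its KO values were all higher, but the difference was not called (log2 fold change 0.18, SE 0.09, adjusted p = 0.138). It was called under quantile normalization (0.0176), and became 0.22 (adjusted p = 0.0965) with the length trend subtracted.

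In the set 11 genes were listed as NRF2 targets, and they are also counted in their own roles. Of these 11, 4 rose (Hmox1, Prdx1, Txn1 and Gstm1) and 7 were not called. The median of the 11 was 0.09 on the log2 scale. The other 26 genes, Gstp1 and Prdx6 among them, had a median of 0.36, with 16 higher and 1 lower. Both medians depend on which genes were listed as targets. Before the length correction 4 of the 11 listed targets were higher and 2 lower at an unadjusted p under 0.05. Of all 10806 genes tested, 2419 were higher and 3220 lower at that threshold. On recovered reads limma-voom called 4 of the 11 higher and 1 lower. After the length correction limma called 0 of 11, and the median was 0.01, beside 0.08 for the other 26. At an unadjusted p under 0.05, 2 of the 11 were then higher and 1 lower, beside 1809 and 1877 of all genes tested.

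Hmox1, the inducible haem oxygenase, which breaks haem into iron, carbon monoxide and biliverdin (chromosome 8, 75093618 to 75100593), had the largest log2 fold change of the 37 genes as deposited. It had 44.2, 33.7 and 50.3 FPKM in WT and 69.1, 84.3 and 54.8 in KO, a 1.62-fold higher mean (log2 fold change 0.68, SE 0.17, adjusted p = 0.00911). The groups did not overlap, but the replicates were spread widely, with a coefficient of variation of 19.6% in WT and 21.3% in KO. Subtracting the length trend gave 0.43 (adjusted p = 0.123), below Prdx4 and Prdx6, with overlap, and leaving out the expression filter gave an adjusted p of 0.0752.

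Hmox1 is strongly expressed in macrophages that take up red cells. Of 12 tested macrophage markers 8 rose, and 2 did after the length correction. All 12 then had log2 fold changes above 0, with a median of 0.50. No marker of this list was at 0 in all libraries. The summed level of the 12 markers was 162, 107 and 261 FPKM in WT and 332, 399 and 259.7 in KO. WT replicate 3 was lowest and KO replicate 3 highest in both this sum and Hmox1, and WT replicate 4 and KO replicate 4 lay close to each other in both. Ptprc, which all leukocytes express, was not called (log2 fold change -0.03, adjusted p = 0.895), and its groups overlapped. Its transcript is 5872 nt long, and after the length correction its log2 fold change was 0.23, again not called and with overlap (adjusted p = 0.265). The part of macrophage RNA in the Hmox1 result was not tested. Hmox2, the constitutive isoform (chromosome 16, 4726361 to 4766742, where Cdip1 overlaps it), had 35.2, 30.9 and 31.4 FPKM in WT and 44.5, 43.8 and 49.8 in KO. Its replicates were close, and every KO library was higher (log2 fold change 0.49, SE 0.08, adjusted p = 0.00139). Unlike Hmox1, it was called with the length trend subtracted (0.35, adjusted p = 0.00929). Of the 5 NRF2 and haem genes, 1 was then called higher, beside 9.31% of all genes tested. At an unadjusted p under 0.05, 4 of the 5 were higher, Keap1 among them, beside 1809 of all 10806 genes tested. The difference between the 2 isoforms was not tested.

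**Figure D4:**
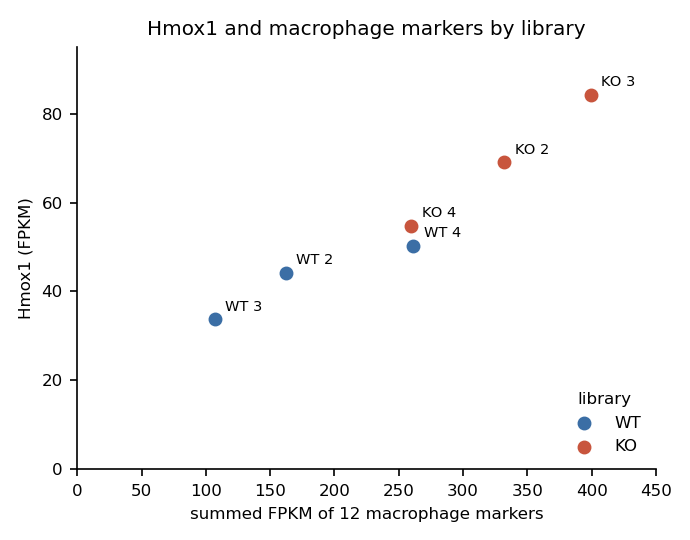
Hmox1 (FPKM) against the summed FPKM of 12 macrophage markers in each of the 6 libraries, 1 labelled point per library. WT replicate 3 (107 and 33.7) and KO replicate 3 (399 and 84.3) are the extremes of both axes, and WT replicate 4 and KO replicate 4 lie together at 261 and 259.7 on the horizontal axis.

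**Figure D5:**
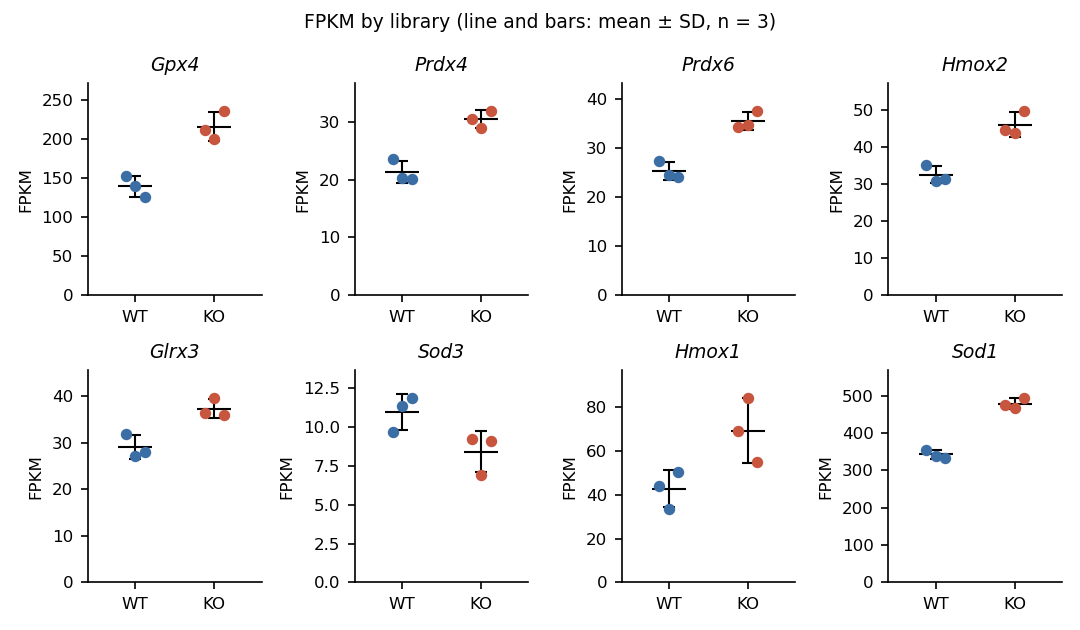
FPKM of the 6 genes called with the length trend subtracted, and of Hmox1 and Sod1, in 3 WT and 3 KO libraries (points) with mean ± SD (lines). KO points lie above WT points in all panels but that of Sod3, where they lie below.

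By place in the cell, 10 of 20 cytosolic genes rose and 3 of 5 mitochondrial genes (Prdx3, Txn2 and Glrx5). Of 5 genes of the secretory pathway 3 rose (Gpx7, Gpx8 and Prdx4) and Sod3 fell. Of the 7 genes placed in none of these classes 4 rose. Of all genes tested 18.3% rose and 25.8% fell. After the length correction 2 of 20, 0 of 5, 1 of 5 and 2 of 7 rose in that order, beside 9.31% of all genes, and Sod3 fell. The length-corrected medians were 0.07, 0.06, 0.07 and 0.09 in that order. Of 5 selenoproteins, which need selenocysteine inserted during translation, Gpx1 and Gpx4 rose and Gpx3, Txnrd1 and Txnrd2 were not called. Corrected for length, 1 of the 5 was called higher (Gpx4), and their median was -0.11. The summed FPKM of the 37 genes was 2354 to 2459 in WT and 3032 to 3162 in KO. Txnip, Sod1, Gpx1 and Prdx1 had the highest levels in both genotypes. The mean sums by role were 402 and 539 FPKM in WT and KO for the superoxide genes, 745 and 1042 for glutathione, 1090 and 1313 for thioredoxin, and 152 and 194 for the NRF2 and haem genes.

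Other genes of these pathways were read from lists chosen for their function, to be set beside the 18.3% of all genes tested that rose and the 25.8% that fell. Of 22 tested glutathione enzymes outside the set 12 rose and the other 10 were not called (median 0.34 on the log2 scale). The transferase Gstm2 rose from 44.7 ± 1.67 (SD, n = 3) to 76.3 ± 8.44 FPKM (log2 fold change 0.75, adjusted p = 0.000511). Esd, which frees glutathione from its formyl thioester, rose from 46.4 ± 4.85 to 66.2 ± 4.41 FPKM. The mu-class transferases Gstm7 and Gstm5 rose 1.86-fold and 1.74-fold. Corrected for length, 6 of the 22 were called higher, among them Gstm2 (0.37, adjusted p = 0.0134), Esd and Gstm7, while Gstm5 was not (0.26, adjusted p = 0.226). The mu-class genes lie in a cluster of similar sequence, between whose members reads may be split.

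Of 30 thioredoxin-fold and repair genes outside the set 9 rose and 6 fell, and 3 and 5 did with the length trend subtracted. Txndc17, a small cytosolic thioredoxin relative, rose from 38.5 ± 1.82 to 55.9 ± 2.14 FPKM (adjusted p = 0.000624), and also with the length trend subtracted (0.25, adjusted p = 0.015). The selenoprotein genes Selenow (465.5 ± 24.6 to 706.5 ± 45.2 FPKM) and Msrb1, which repairs oxidised methionine, rose as well, and were not called with the trend subtracted. Tmx4, a thioredoxin-like protein of the endoplasmic reticulum membrane, fell from 5.47 ± 0.390 to 2.73 ± 0.381 FPKM (log2 fold change -0.80), and remained lower with the trend subtracted (-0.59, adjusted p = 0.00555).

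Of 20 further NRF2 targets 8 rose and 2 fell, and after the length correction 5 and 2. The ferritin genes Fth1 and Ftl1, which store the iron that haem oxygenase frees, rose from 808.6 ± 28.96 to 1225 ± 36.1 FPKM and from 984 ± 75.4 to 1576 ± 92.4. Ftl1 kept its call with the length trend subtracted (0.28, adjusted p = 0.0251), and Fth1 did not (0.19, adjusted p = 0.0835). Under quantile normalization both calls were lost, with log2 fold changes of 0.0641 for Fth1 and 0.0973 for Ftl1 (adjusted p = 0.445 and 0.299). Blvrb, a biliverdin reductase, rose 1.47-fold and the glutathione conjugate exporter Abcc1 fell 1.7-fold. Corrected for length, Blvrb was not called (0.14, adjusted p = 0.314) and Abcc1 was (-0.28, adjusted p = 0.0445). Slc7a11, the cystine transporter, was under 1 FPKM in every library.

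Of 10 tested regulators and partners of NRF2 6 fell and 1 rose. Their transcripts are long, with a median of 5961 nt, and in length classes 4 and 5 of all genes 40.8% and 66.2% fell. After the length correction 2 fell and 1 rose. Bach1, a repressor that competes with NRF2 at its sites, fell from 6.16 ± 0.433 to 3.46 ± 0.279 FPKM, and Gsk3b, a kinase that marks NRF2 for decay, from 7.91 ± 1.06 to 3.85 ± 0.0834. Both fell with the trend subtracted (-0.38 and -0.50, adjusted p = 0.0198 and 0.00801). The related factor gene Nfe2l1 fell from 95.9 ± 1.83 to 73.3 ± 4.64 FPKM, but not after the correction (-0.165, adjusted p = 0.0723). Rbx1, a subunit of the ligase that degrades NRF2, rose 1.37-fold, and 0.22 on the log2 scale after it (adjusted p = 0.0316). Over the 5 lists together 16 genes fell, and 10 without WT replicate 4.

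Of 11 tested genes of oxidant sources 4 rose and 2 fell. Cyba, the p22phox subunit of NADPH oxidases, rose from 156 ± 7.91 to 206 ± 8.38 FPKM, and the phagocyte oxidase subunits Ncf4 and Ncf1 rose 1.97-fold and 1.73-fold from means of 1.76 and 2.56 FPKM. Nos3, the endothelial nitric oxide synthase, fell from 153 ± 1.48 to 132 ± 4.63 FPKM (log2 fold change -0.21, adjusted p = 0.0237). Its call was lost without WT replicate 3 or 4 or KO replicate 2 or 4 (0.052 to 0.0862) and under median-ratio scaling (0.0708). The call of Ncf1 was lost without WT replicate 2 or 3 or KO replicate 2 or 3 (0.0528 to 0.0768), with 0.391 on the log2 scale without WT replicate 3, and the calls of Ncf1 and Ncf4 without the filter (0.153 and 0.0942). The membrane subunit gene Cybb had 1.4 ± 0.671 FPKM in WT and 0.969 ± 0.096 in KO and was not called (log2 fold change -0.25, adjusted p = 0.28). Corrected for length, Cyba, Ncf4, Ncf1 and Nos3 had adjusted p of 0.447, 0.08996, 0.0704 and 0.347. Some leukocyte markers were higher beside Ncf1 and Ncf4, while Ptprc was not called before or after the length correction. Besides the macrophage markers, 3 of 3 tested neutrophil markers rose, with 14.8 to 19.02 FPKM summed over the list in WT and 35.02 to 56.3 in KO. Ly6g and Elane, which define neutrophils and their precursors, were above 0 in 1 library each. 3 of 3 tested lymphocyte markers rose (8.43 to 10.7 FPKM in WT, 17.3 to 27.2 in KO). Of 10 cardiomyocyte markers 1 rose and 1 fell, with 208 to 306 FPKM in WT and 286 to 345 in KO. The part of these cells in the results was not tested.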

How the data were processed

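RNA-seq of 3 WT and 3 KO libraries was read from 2 tables that the authors deposited. One holds FPKM per gene and library. The other gives, per the file headers, base means from DESeq2, a signal of size-factor-scaled counts per group. It also has fold changes as a ratio and in log2 units, deposited with a p-value and an adjusted q-value per gene. The build was mm10, per the submitters' processing notes, which name GATK (4.0.11.0), DESeq2 (1.22.1), featureCounts (1.6.2) Cufflinks and StringTie (1.3.4d), besides HISAT2 (2.1.0) and fastp (0.19.3), without role or order. Libraries were made from TRIzol-extracted RNA with a stranded mRNA kit, per the labels' protocols.

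Groups came from sample titles. limma 3.58.1 (R 4.3.3, trend, genotype only) was fitted to log2(FPKM + 1) of every gene that reached 1 FPKM in 3 or more libraries. P-values were adjusted by Benjamini-Hochberg over all 10806 genes. The fit was tested on simulated data that held no length trend between groups, so that test could not check calls made under the trend. Log2 fold changes are on the log2(FPKM + 1) scale, which understates changes of low genes. Folds are ratios of mean FPKM. Reads per gene and library were recovered from FPKM and the deposited group means (taking values below 1000 reads, 100.0% came out whole to within 0.05), and gave depth and an implied transcript length; 3207 genes had none. Floors of 3 reads cover counting error only. The length trend was a lowess curve (span 0.5) of each library's deviation from the gene mean on log2 length. Other settings were quantile normalization, median-ratio scaling, a pseudocount of 0.1, no expression filter, a minimum of 5 FPKM, a replicate block (the replicate number as a factor), limma-voom on recovered reads and leaving out each library. The rest was done in Python 3.11.15 (matplotlib 3.10.9, scipy 1.17.1, pandas 2.3.3, numpy 2.4.6). Coordinates are those of GRCm38.p6, matched by gene ID.

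The 37 genes, the lists and the tests were chosen with earlier results of these data known. Named by rule were called genes of the set, up to 8 per role by smallest p, the superoxide dismutases, Nfe2l2, Keap1, Nqo1 and Hmox1, and up to 4 called genes per pathway list. The lists were other glutathione enzymes, thioredoxin-fold and repair enzymes, NRF2 targets, NRF2 regulators, oxidant sources, and markers of endothelium, cardiomyocytes, erythroid cells, macrophages, neutrophils, lymphocytes, fibroblasts and mural cells. Gsta1, Mpo and Trac were not found by symbol.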

Additional observations from a re-analysis of the deposited data

How the results depend on the processing

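Of the 37 genes, 20 were called higher as reported. The number was 17 to 21 under quantile normalization, median-ratio scaling, no filter, a minimum of 5 FPKM, the pseudocount of 0.1, limma-voom and the replicate block (18), and 19 without each library in turn. It was 5 with the length trend removed and 3 with the replicate block as well (Hmox2, Prdx4 and Prdx6). The number called lower, 1 as reported, was 0 with median-ratio scaling, no filter, the replicate block, and the length trend removed with the block, 2 with limma-voom, and 0 to 1 without single libraries. Over all genes tested, 1006 were higher and 1036 lower with the length trend removed, and 317 and 418 with the block as well, against 1982 and 2790. Of the other pathway genes, 34 higher and 16 lower as reported became 15 and 9 with the trend removed and 6 and 3 with the block as well, and 10 to 17 were lower without single libraries.

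The replicate numbers did not pair the libraries: deviations of same-numbered WT and KO libraries correlated at -0.195, -0.349 and -0.222, and no library correlated best with its own number. Among the 37 genes, Gstm1, Gsto1 and Sod3 lost their calls in the fit with the replicate block, as did Nos3 of the named pathway genes (adjusted p = 0.0851).

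Among the 37 genes and the pathway genes named by rule, log2 fold changes took the other sign with the length trend removed, with or without the block, for Sod1 (-0.0386), Gpx3 (-0.175), Txn2 (-0.0441), Gclm (-0.146), Gsr (-0.0337), Gss (-0.102), Nfe2l2 (-0.0629), Glrx (-0.0155) and Cyba (-0.0754). Of these, Sod1, Txn2 and Cyba had been called before. Among pathway genes not named so far, Gstk1, Ccs and Mt2 (called higher) and Oxr1 and Abcc4 (called lower) also changed sign and lost their calls, and Slc3a2, not called before, became higher (0.37). Quantile normalization turned Txnrd2 (0.12), Txnip (-0.28), Nfe2l2 (-0.0804) and Gsta4 (0.11), and median-ratio scaling Txnrd2 (0.0377) and Gsta4 (0.0228). Leaving out single libraries gave ranges that cross 0 for Gpx3 (-0.018 to 0.138), Txnrd2 (-0.0711 to 0.0733), Txnip (-0.0672 to 0.103), Gclm (-0.0792 to 0.0673), Gsr (-0.057 to 0.0754), Nfe2l2 (-0.0122 to 0.0413), Keap1 (-0.0276 to 0.028), Srxn1 (-0.0088 to 0.17) and Gsta4 (-0.122 to 0.13), none of them called as reported. The cause of these changes was not tested.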
